A study of Mus musculus with 2 samples.

Results

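The Hox cluster microRNA genes are 6 mouse genes that sit between or inside the Hox genes, namely Mir10a, Mir10b, Mir196a-1, Mir196a-2, Mir196b and Mir615. They were chosen by name, for their place in the Hox clusters, and make up 6 of the 2202 miRNA genes counted. The reads came from microRNA sequencing of total RNA (size range under 30 per the labels) of hippocampal tissue, part of the forebrain. The series held 1 group of 2 libraries, called replicate 1 and replicate 2, from male B6CASTF1/J mice aged 18 to 20 months with no treatment named, so no genotype, age or sex was compared. B6CASTF1/J is a cross of the C57BL/6 and CAST backgrounds, so the animals carry a genome copy of each. The reads were counted on the mm10 reference, which is C57BL/6, and how well reads from CAST alleles mapped to it was not tested. In the labels each library has its own tissue entry but the donor entry is the same, and separate animals are not mentioned. The differences between the libraries, called by a test or not, may therefore be technical. Replicate 1 held 3758318 counts on the sense strand of miRNA genes and replicate 2 held 5598792.

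Hox genes encode transcription factors that give body segments their identity along the axis from head to tail. They lie in clusters in which the order of the genes follows the order of their domains along that axis. In the vertebrate nervous system Hox genes act in the hindbrain and spinal cord, while the forebrain develops in front of their domains. The microRNAs encoded in the clusters are cut from hairpin transcripts. They pair through their seed, bases 2 to 8, with messenger RNAs and repress them, and Hox messenger RNAs are among their known targets.

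The mature sequences are shown first because they decide which of these genes a read can be assigned to. Each is from RefSeq (GRCm38.p6), written 5′ to 3′ with the seed in capitals. RefSeq held mature strands for all 6 genes. The 5p strands of the mir-10 and mir-196 genes and both strands of Mir615 were as follows.
miR-10a-5p: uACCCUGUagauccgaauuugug
miR-10b-5p: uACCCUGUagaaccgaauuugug
miR-196a-5p: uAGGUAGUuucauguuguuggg
miR-196b-5p: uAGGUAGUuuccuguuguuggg
miR-615-5p: gGGGGUCCccggugcucggauc
miR-615-3p: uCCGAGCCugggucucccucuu

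These strands fall into 2 pairs of near twins and a gene on its own. The 5p strands of Mir10a and Mir10b shared their seed with each other and with no other mouse mature strand in the table, and they differed by 1 substitution, U12A, counted from the 5′ end of miR-10a-5p. Those of the mir-196 genes shared theirs among the 3 genes only, and miR-196a-5p and miR-196b-5p differed by A12C, counted from the 5′ end of miR-196a-5p. Neither strand of Mir615 shared its seed with another mature strand. Its strands were also the richest in G and C, at 77.3% for the 5p and 63.6% for the 3p, against 36.4% to 59.1% for the mature strands of the other members.

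The hairpins show where copies can be told apart. They are given from RefSeq (GRCm38.p6) with the mature strands in capitals, for the mir-196 genes, whose counts were most uneven, and for the mir-10 genes.
Mir196a-1: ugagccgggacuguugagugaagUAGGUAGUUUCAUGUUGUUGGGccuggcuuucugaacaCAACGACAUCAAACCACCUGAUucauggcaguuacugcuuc
Mir196a-2: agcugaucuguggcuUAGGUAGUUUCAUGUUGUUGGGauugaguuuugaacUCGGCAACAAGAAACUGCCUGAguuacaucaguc
Mir196b: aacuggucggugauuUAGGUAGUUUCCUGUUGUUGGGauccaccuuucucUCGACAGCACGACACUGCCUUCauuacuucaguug
Mir10a: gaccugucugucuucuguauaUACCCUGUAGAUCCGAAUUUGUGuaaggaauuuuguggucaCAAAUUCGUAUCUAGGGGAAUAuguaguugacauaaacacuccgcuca
Mir10b: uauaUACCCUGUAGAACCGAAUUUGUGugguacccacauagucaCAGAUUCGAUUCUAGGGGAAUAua

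Mir196a-1 and Mir196a-2 carry the same 5p strand, so a full-length read of miR-196a-5p fits both loci. The shared run is 22 nt long, the whole mature strand, while their 3p strands differ at 17 of 22 positions. In each table the gene counts and the 4 summary lines gave the same sum in all 3 count columns, 10594081 in replicate 1 and 16131923 in replicate 2. No separate read total was there to set against it. Reads that mapped to several places have a line of their own, and such reads were taken to be in no gene. The counts of both mir-196a genes therefore leave out reads that fit both loci and are not tissue levels of miR-196a. The other members had no such twin in the annotation. The longest run shared with any other annotated hairpin was 15 nt between Mir10a and Mir10b, 12 nt for Mir196b and 14 nt for Mir615. The counts are per gene and do not separate the 5p from the 3p strand.

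The mir-10 genes were the most abundant members, at a low level for this tissue. Mir10a (chromosome 11, 96317165 to 96317274 in mm10, plus strand) lies between Hoxb5 and Hoxb4 and overlaps no other annotated gene on its strand. It had 113 counts in replicate 1 and 155 in replicate 2, or 30.1 and 27.7 counts per 1000000 counted miRNA reads (CPM), with a mean of 28.9 ± 1.68 CPM (SD, n = 2). Mir10b (chromosome 2, 74726070 to 74726137, plus strand) lies in introns of Hoxd3 and Hoxd4. It had 84 and 55 counts, or 22.4 and 9.82 CPM in replicates 1 and 2. The replicates were close for Mir10a and apart for Mir10b. The mature strands of the members are 22 or 23 nt long, below the size limit of 30 in the labels, so CPM were compared between genes without dividing by length.

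The mir-196 genes had fewer reads, all of them on 2 of the 3 genes. Mir196b (chromosome 6, 52230081 to 52230165, minus strand) lies in the Hoxa9 locus, within an exon of 2 of the 3 Hoxa9 transcripts that span it. It had 20 and 37 counts, or 5.32 and 6.61 CPM in replicates 1 and 2. Mir196a-2 (chromosome 15, 102973350 to 102973434, plus strand) lies between Hoxc10 and Hoxc9, in an intron of a long Hoxc5 transcript. It had 7 and 14 counts, or 1.86 and 2.50 CPM. Mir196a-1 (chromosome 11, 96265164 to 96265265, plus strand), 6.19 kb from Hoxb9 and overlapping no other annotated gene on its strand, had no count in either library. With 0 counts the level of its uniquely mapping reads could still reach 3 counts, which is 0.798 CPM in replicate 1 or 0.536 CPM in the deeper replicate 2, and no limit follows for the shared 5p strand.

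The best known target of miR-196a is Hoxb8, whose messenger RNA it directs to be cut. Its site was located in the Hoxb8 transcript ENSMUST00000052650.3 (chromosome 11, GENCODE M21), at bases 2208 to 2229 of 2635, after the last coding base at 1790. It is shown because it spans the strand that Mir196a-1 and Mir196a-2 share, with capitals for bases in Watson-Crick pairs with miR-196a-5p.
Hoxb8 site: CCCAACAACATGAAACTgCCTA
Of its 22 bases, 21 paired in this way, and the other is a G opposite a U. No messenger RNA was measured in this series, so the site is a description of the sequence only.

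Mir615 (chromosome 15, 103014910 to 103015001, plus strand) lies in an intron of both Hoxc5 transcripts that span it. It had 11 counts in replicate 1 and 15 in replicate 2, or 2.93 and 2.68 CPM. These counts are just above the limit of 10 counts in both libraries at which a gene was taken as detected. Mir10a, Mir10b, Mir196b and Mir615 passed this limit, 4 of 6 members, against 384 of all 2202 miRNA genes (17.4%). Mir196a-2 missed it in replicate 1 only, and Mir196a-1 in both libraries. The members had no count on the opposite strand, and no annotated gene overlaps a member on that strand.

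**Figure D1:**
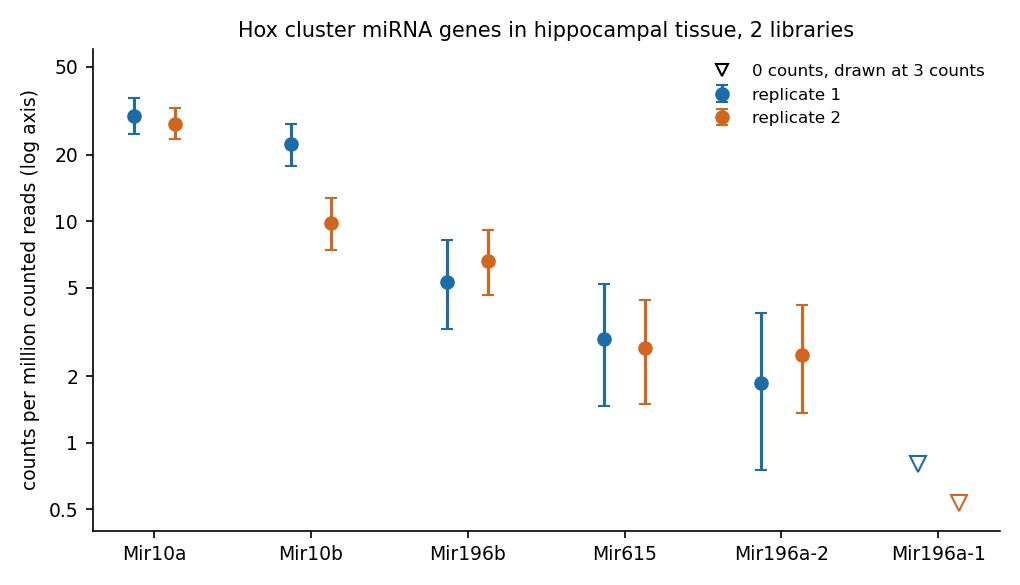
Level of each Hox cluster miRNA gene in CPM (vertical, log axis) in replicate 1 and replicate 2, with exact 95% Poisson intervals as bars. Mir10a sits near 30.1 and 27.7 CPM, Mir10b splits between the libraries (22.4 and 9.82 CPM), and Mir196a-1, with no counts, is drawn as open triangles at 3 counts (0.798 and 0.536 CPM). The triangles are a fixed mark and not the end of an interval.

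The order of the levels was Mir10a, Mir10b, Mir196b, Mir615, Mir196a-2 and Mir196a-1, the mir-196a genes without reads that fit both loci. At each step the counting intervals of the neighbours overlapped in at least 1 library. The intervals below are exact 95% Poisson intervals on CPM and hold only the error of counting; PCR copies of a molecule cannot be recognised without molecular identifiers. In replicate 1 those of Mir10a (24.8 to 36.1 CPM) and Mir10b (17.8 to 27.7 CPM) overlapped. In replicate 2 they were apart, at 23.5 to 32.4 CPM for Mir10a and 7.40 to 12.8 CPM for Mir10b. The ratio of Mir10a to Mir10b counts was 1.35 (exact 95% interval 1.01 to 1.81) in replicate 1 and 2.82 (2.06 to 3.91) in replicate 2. The size of the Mir10a lead was thus not the same in the libraries.

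The lower steps were less sure. Mir10b and Mir196b were apart in replicate 1, where Mir196b had an interval of 3.25 to 8.22 CPM, and overlapped in replicate 2, where it had 4.65 to 9.11 CPM. Mir615 had 1.46 to 5.24 CPM in replicate 1, which overlapped Mir196b, and 1.50 to 4.42 CPM in replicate 2, which did not. Mir615 and Mir196a-2 could not be separated in either library, with a count ratio of 1.57 (0.556 to 4.78) in replicate 1 and 1.07 (0.482 to 2.40) in replicate 2. At this depth, a difference between them was not detectable.

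By family, the pair of mir-10 genes held most of the members' reads. They gave 197 of 235 counts (83.8%) in replicate 1 and 210 of 276 (76.1%) in replicate 2. The 3 mir-196 genes gave 27 and 51 counts, or 11.5% and 18.5%, without the reads that both mir-196a loci share. The ratio of mir-10 to mir-196 counts was 7.30 (4.86 to 11.4) in replicate 1 and 4.12 (3.02 to 5.71) in replicate 2. Together the 6 genes reached 62.5 and 49.3 CPM in replicates 1 and 2, or 55.9 ± 9.36 CPM (SD, n = 2).

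Seen along the clusters, the members with the most counted reads lay beside Hox genes of the number 4. Those with fewer counted reads lay beside higher-numbered ones, with Mir615 as the exception. Hox genes with low numbers are known to act nearer the head than those with high numbers. Mir10a lies 0.993 kb from Hoxb4, and Mir10b inside the loci of both Hoxd3 and Hoxd4. Mir196b lies 1.03 kb from Hoxa10 and inside the locus of Hoxa9, and Mir196a-2 lies 1.46 kb from Hoxc10 and 3.005 kb from Hoxc9. Mir615, with 2.93 and 2.68 CPM, is flanked by Hoxc6 at 3.03 kb and Hoxc4 at 3.93 kb. The clusters were not read alike either. The HoxB members summed to 30.1 and 27.7 CPM, all from Mir10a, and the HoxC members to 4.79 and 5.18 CPM. The HoxD and HoxA clusters hold a single member each, Mir10b and Mir196b. The counts of Mir196a-1 and Mir196a-2 leave out reads that fit both loci. Their places in this order and the HoxB and HoxC sums are therefore not tissue levels. Without these genes only Mir196b stands for the higher-numbered side, and its interval overlapped that of Mir10b in replicate 2. The order is a description of 6 genes with no test.

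**Figure D2:**
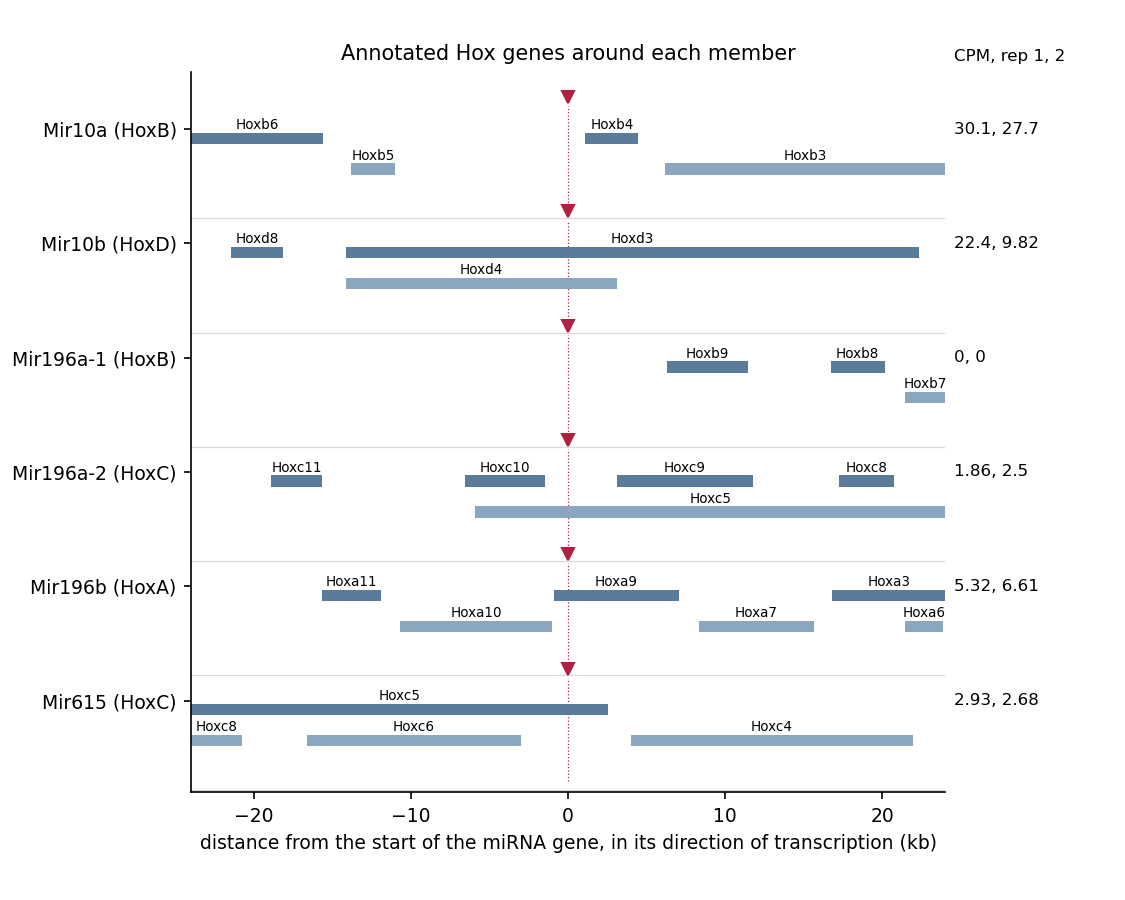
Annotated Hox genes (bars, GENCODE M21) within 24 kb of each miRNA gene (triangle at 0), with distance in kb in the direction of transcription of the miRNA gene, and CPM in replicates 1 and 2 at the right. The mir-10 genes, with 30.1 and 27.7 CPM and with 22.4 and 9.82 CPM, lie close to or inside Hoxb4 and Hoxd4. Mir196b and Mir196a-2 lie beside Hox9 and Hox10 genes, and Mir196a-1 lies beside Hoxb9.

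Set against all detected miRNA genes, the members lay in the lower part of the abundance range. Ranked by mean CPM among the 384 detected genes, Mir10a stood at 253, Mir10b at 280, Mir196b at 341 and Mir615 at 375. Of the detected genes, 34.1% had a lower mean than Mir10a, the highest member, and the median detected gene had 102 CPM. The genes closest in level were Mir103-2 (29.2 CPM, without reads that fit its other copy) above and Mir135b (28.7 CPM) below Mir10a, and Mir33 (16.7 CPM) above and Mir1930 (16.1 CPM) below Mir10b. Around Mir196b stood Mir3087 and Mir3085, and around Mir615 stood Mir3962 and Mir5134. Likeness here is the absolute log2 difference in mean CPM over 2 libraries, which was at most 0.07 for these 8 neighbours.

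The genes most like mir-10 in sequence but located outside the Hox clusters were among the most abundant of all. Mir99a, Mir99b and Mir100 belong to the same microRNA superfamily. Their 5p strands from RefSeq (GRCm38.p6) are shown beside the mir-10 strands above, with the seed in capitals.
miR-99a-5p: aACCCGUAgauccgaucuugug
miR-100-5p: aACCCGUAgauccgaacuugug
miR-99b-5p: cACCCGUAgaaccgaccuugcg

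The strands share a core with mir-10 but not the seed. The run GUAGAUCCGAA occurs in miR-10a-5p from base 7 and in miR-100-5p from base 6, so the core is shifted by 1 base and the seed ACCCUGU stands against ACCCGUA. For miR-10b-5p and miR-99b-5p the shared run was GUAGAACCGA. In replicates 1 and 2, Mir99a had 39534 and 26370 CPM, Mir99b had 8572 and 4048 CPM, and Mir100 had 6969 and 4736 CPM. They ranked 7, 32 and 36 among detected genes. Summed over the 3 genes, counts were 1051 times those of Mir10a and Mir10b in replicate 1 (exact 95% interval 914 to 1214) and 937 times in replicate 2 (819 to 1078). The longest run that any of them shared with another annotated hairpin was 16 nt, between Mir99a and Mir100.

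A like partial match links mir-196 with let-7, the family that is abundant in this tissue. The letters AGGUAGU, the seed of miR-196a-5p at bases 2 to 8, stand at bases 3 to 9 of let-7a-5p, and the strands differ at 15 of 22 positions.
let-7a-5p: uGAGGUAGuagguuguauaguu
The seeds are therefore offset by 1 base and not the same.

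**Figure D3:**
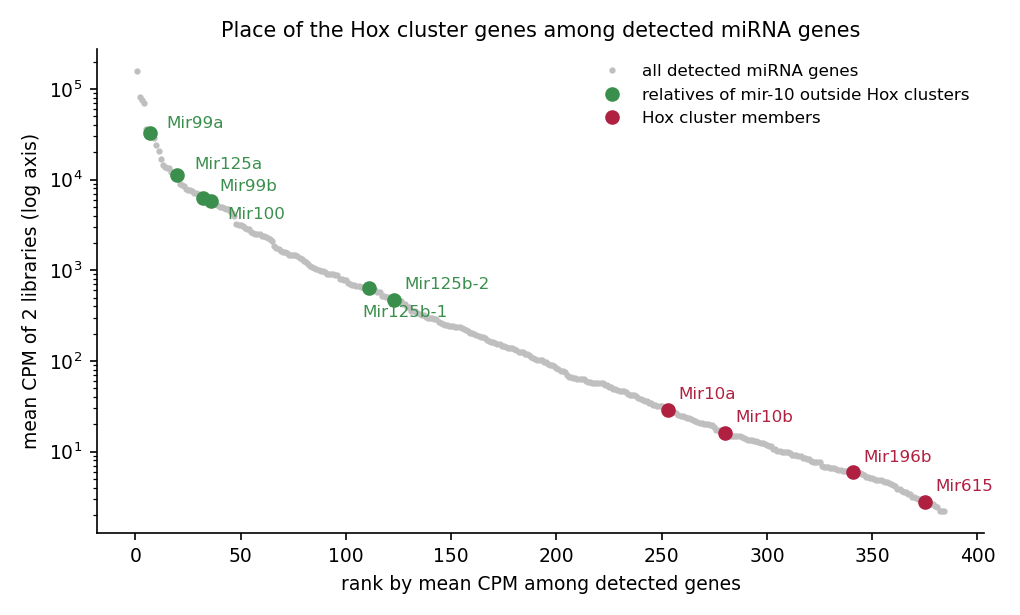
Mean CPM of the 2 libraries (vertical, log axis) against rank for the 384 detected miRNA genes, with the 4 detected Hox cluster genes in red and 6 relatives of mir-10 outside the clusters in green. The Hox cluster genes hold ranks 253 to 375, and the relatives ranks 7 to 123. The places of Mir125b-1 and Mir125b-2 leave out reads that fit both loci.

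The tissue label was checked against lists of microRNAs known for cell types. The neuron list was high, with 9 of 13 genes detected and sums of 51169 and 52958 CPM in replicates 1 and 2. Its leading genes were Mir132, which neuronal activity induces, at 17812 and 15491 CPM, and Mir128-1, which has a second copy, at 12185 and 14432 CPM. In that list Mir124a-1, Mir124a-2, Mir124a-3 and Mir9-2 were not detected. Mir124a-3, a copy of a multi-copy gene, was at 0 in both libraries. The sum of the neuron list also leaves out reads that fit several copies. The Hox cluster sums of 62.5 and 49.3 CPM were set against lists for cells and tissues that are minor in or foreign to brain. The red cell list had 52.4 and 77.0 CPM, led by Mir451a at 39.6 and 63.4 CPM, with 2 of 4 names found in the annotation and both detected. The names Mir486a and Mir486b were not found, but Mir486 is annotated. It had 10.9 and 18.8 CPM in replicates 1 and 2, which the red cell sum leaves out. The muscle list had 66.5 and 93.2 CPM, with 2 of 9 detected, led by Mir206 at 52.2 and 79.7 CPM. Its sum leaves out reads that fit several copies, and Mir1a-1, Mir1a-2, Mir133a-1 and Mir133a-2, each of which shares at least 28 nt with another hairpin, were at 0. The epithelium list (6 of 7 detected) had 339 and 318 CPM, led by Mir203, and the liver and pancreas list (2 of 5) had 301 and 350 CPM, led by Mir375. Without Mir486 the red cell range overlapped the Hox cluster range, and adding Mir486 would put it just above. The muscle, epithelium and liver ranges lay above the Hox cluster range. The fibroblast and meninges list, at 5.59 and 22.7 CPM, lay below the Hox cluster range. Far above that range lay the endothelial and mural list, at 22045 and 16510 CPM in replicates 1 and 2. The leukocyte and microglia list, at 3746 and 3444 CPM, also lay above it. The lists differ in their numbers of genes, so their sums are not like for like. As these are bulk samples, few cells with much of a microRNA and many cells with little of it cannot be told apart.

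Between the libraries, Mir10b differed most among the members, and Mir10a differed less. As the series has no second condition, the exact binomial test on counts compares the libraries with each other. Its p-values hold only the error of counting and no variation between replicate libraries. The test used library sizes scaled by TMM (trimmed mean of M-values) and was adjusted by the Benjamini-Hochberg method over all 384 detected genes. It called 250 of them (65.1%), 131 higher in replicate 1 (34.1%) and 119 higher in replicate 2 (31%), so a call is common here. Among the 132 genes with 10 to 200 counts in both libraries, the range of the members, it called 39 (29.5%), of which 24 were higher in replicate 1 (18.2% of the 132). Of the 4 detected members it called 2, both higher in replicate 1.

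Mir10b, with 84 and 55 counts, was 2.83-fold higher in replicate 1 on the TMM scale (exact 95% interval 1.99 to 4.06; exact binomial test, adjusted p = 3.02e-09). Mir10a, with 113 and 155 counts, was 1.35-fold higher in replicate 1 (1.05 to 1.74; adjusted p = 0.0279). That call was lost with total-count scaling (adjusted p = 0.601) and with no filter on low counts (0.0597), over a range of 0.0215 to 0.601 across the alternatives. The intervals of the other members were wide. Mir196b was 1.00-fold (0.552 to 1.77), and Mir615, which was tested with 11 and 15 counts, was 1.36-fold (0.565 to 3.17; adjusted p = 0.492), both for replicate 1 over replicate 2. Mir196a-2 was below the count limit of the test, and the same ratio had an interval of 0.317 to 2.46.

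The scale matters for these directions. TMM sets the libraries 1.25 times further apart than their total counts do. With total counts the median log2 difference of detected genes, replicate 2 over replicate 1, is 0.31 in place of -0.01, and 28.04% of called genes, in place of 52.4%, are higher in replicate 1. Mir10b stayed higher in replicate 1 under every scaling tried, at log2 differences of -1.19 to -1.50. The median absolute difference was 1.36-fold over all detected genes, close to the value for Mir10a and below that for Mir10b.

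The relatives of mir-10 moved mostly the same way on the TMM scale, with 5 of 6 called higher in replicate 1 and 1 in replicate 2. Over all detected genes these shares were 34.1% and 31%. The relatives had 1847 to 148582 counts a library, and calls were more frequent at higher counts. The share called was 65.1% over all detected genes and 29.5% among those with 10 to 200 counts. Mir99b was 2.64-fold, Mir99a 1.87-fold and Mir100 1.83-fold higher in replicate 1. Mir125b-1 (614 and 654 CPM) and Mir125b-2 (491 and 452 CPM) were 1.17-fold and 1.36-fold higher in replicate 1. Their hairpins share 24 nt and carry the same 5p strand, so their counts leave out reads that fit both loci. These counts are not tissue levels of miR-125b. Mir125a, with 5924 and 16583 CPM in replicates 1 and 2, was 2.25-fold higher in replicate 2. The adjusted p of the exact binomial test was at most 1.23e-08 for the 6 genes. With total counts, Mir125b-1 was the higher in replicate 2, as its CPM show.

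Markers of vessel, blood and connective tissue cells also differed between the libraries, in both directions. The endothelial and mural list (3 of 3 detected, none at 0) summed to 22045 and 16510 CPM in replicates 1 and 2, and all 3 genes were called higher in replicate 1, Mir126a with 11853 and 10726 CPM and Mir143 with 9621 and 5562 CPM among them. The leukocyte and microglia list (6 of 6 detected, none at 0) summed to 3746 and 3444 CPM, with 4 of the 6 genes called higher in replicate 1, led by Mir342 and Mir150. Of all 384 detected genes, 65.1% were called and 34.1% were called higher in replicate 1. The neuron list had 6 genes called higher in replicate 1 and 3 in replicate 2, so such calls were not limited to these lists. The red cell list had the higher sum in replicate 2, with 52.4 and 77.0 CPM in replicates 1 and 2. Mir451a was called higher in replicate 2 (exact binomial test, adjusted p = 0.0164). Mir144, the other matched gene, was not called (log2 difference -0.229, replicate 2 over replicate 1, on the TMM scale; exact binomial test, adjusted p = 0.468). The fibroblast and meninges list also had the higher sum in replicate 2, with 5.59 and 22.7 CPM. It had 1 of 4 genes detected, Mir214, called higher in replicate 2, and Mir199a-1 and Mir199a-2 were at 0. These share at least 27 nt with another hairpin, so their 0 and the list sum leave out reads that fit several copies and set no limit on the tissue level. The part of these cells in the difference of Mir10b or Mir10a was not tested.

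**Figure D4:**
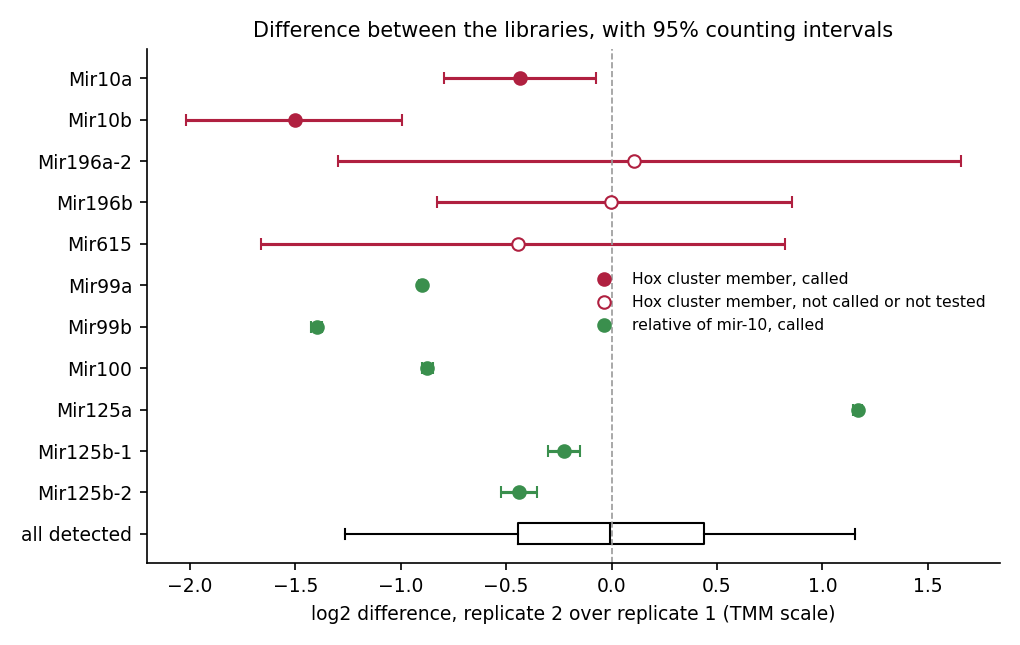
Log2 difference between the libraries, replicate 2 over replicate 1 on the TMM scale (horizontal), with exact 95% intervals for the 5 Hox cluster genes with counts and for 6 relatives of mir-10, and a box for all 384 detected genes (median line, quartiles, whiskers at the 5th and the 95th percentile, -1.27 and 1.15). Mir10b lies at -1.50, outside the whiskers, while Mir10a at -0.44 lies at the edge of the box, and open points were not called or not tested.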

How the data were processed

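MicroRNA sequencing of 2 libraries gave 1 table each. The authors deposited raw read counts per miRNA gene, after 4 summary lines. Per the labels the build is mm10, and the README text deposited beside each table names GENCODE M21. No aligner or counter is named in the sources used here. Of 3 count columns (unstranded and 2 stranded), the column with the larger stranded total was taken as sense. The summary lines entered no library size. In replicate 1 they held 51.5% of reads as mapped to several places, 9.53% as unmapped and 3.47% as outside features, and in replicate 2 they held 46.7%, 14.4% and 4.24%.

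GENCODE M21 named all 2202 identifiers. CPM are counts per 1000000 sense counts. Genes with 10 or more counts in both libraries entered an exact binomial test, two-sided (SciPy 1.17.1), on TMM effective library sizes (edgeR 4.0.16), with Benjamini-Hochberg adjustment at 0.05. The test was tested on simulated counts with counting error only, which does not show its error rate in these libraries. Intervals are exact (95%). DESeq2 1.42.0 gave alternative size factors. Following the biological replicate numbers in the labels, n is 2; the counts do not show whether the samples are separate. Mature and hairpin sequences are from RefSeq (GRCm38.p6), and shared runs were sought among GENCODE hairpins of all 2202 genes. Named genes are the members, the relatives of mir-10, the detected genes next above and below each detected member, and the 2 highest of each marker list. Marker genes named as being at 0 or not detected, Mir486 and let-7a fall outside this rule. They were chosen after their values or sequences were seen. The members, lists and rules were chosen with earlier results of these data known. Mir486a and Mir486b matched no symbol, while Mir486 is annotated but was not in the list.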

Additional observations from a re-analysis of the deposited data

How the results depend on the processing

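The summed level of the Hox cluster genes, 55.9 CPM, was 19.6 per 1000000 of all reads and 130.2 CPM without the 10 most abundant genes in the denominator, changes that the denominators make by construction. It lay within 1 SD with TMM sizes, unstranded counts or without members that share 20 nt or more. Leaving out each replicate gave 49.3 to 62.5 CPM and 4 to 5 detected members. Detection at 5, 20 or 1 count gave 5, 3 and 5 members. The number of genes called, 250, ran from 228 to 271. The difference of Mir196b between libraries, -0.0043 on the log2 scale (replicate 2 over replicate 1), changed sign with DESeq2 size factors (0.0032), total counts (0.31), no filter (0.016) and unstranded counts (0.0022), and was called under none of them. Mir10a lost its call with total counts and with no filter; with no filter 752 genes were adjusted for. Leaving out a replicate leaves no difference between libraries to test. No paired analysis was possible because there is 1 group. Depth limits Mir615 and Mir196a-2, with 7 to 15 counts a library.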
